A study of Rattus norvegicus with 6 samples.

Results

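The outer 2 Mb of the rat chromosomes were examined for histone lactylation in tenocytes, the resident collagen-producing cells of tendon. Peaks of 6 CUT&Tag libraries were pooled, and those overlapping by at least 1 bp were merged into regions. A region counted as lying near a chromosome end when its midpoint fell below 2 Mb, or within 2 Mb of the largest peak end on that chromosome, on chromosomes 1 to 20. This position rule used no measured height, and it found 4910 of 171752 regions on these chromosomes (176698 with X and Y). The other 166842 regions form the interior. The 40 ends hold 80 Mb, and 2.86% of the regions lay there against 3.25% of the length. All cells were wild-type rat tenocytes from tendon. For each of the marks H3K9la, H4K8la and H4K16la, 1 library came from untreated cells (control) and 1 from cells given 20 mM lactate. Each group is thus a single library, and a difference of control and lactate cannot be set against replicates. Whether the cells came from 1 animal or several is not stated in the labels, and regions were not tied to genes, so the cell type label could not be checked against its markers.

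Lactylation is the attachment of a lactate-derived lactyl group to histone lysines, and it is studied as a mark of active chromatin that links metabolism to transcription. CUT&Tag uses a mark-specific antibody to tether a transposase to chromatin, and the released fragments are sequenced. Chromosome tips are unlike the rest of the genome. Subtelomeric DNA next to the telomere repeats is often rich in genes and in duplicated sequence, while many of the larger rat chromosomes carry their centromere, with its repetitive and mostly silent chromatin, close to the tip where coordinates begin. Below, that tip is called the start and the opposite tip the far end. The far end was set by the outermost peak, so bases beyond that peak were not counted.

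Near the ends the control lists held 1739 peaks of H3K9la, 1825 of H4K8la and 1274 of H4K16la, and the lactate lists held 1397, 1355 and 1821. The genome-wide background, read from the peak lists as average fragment coverage, ran from 1.32 to 2.84 across the 6 libraries and is the only measure of depth used here. Where libraries are tested against each other below, the unit is the library. The 6 libraries are 3 marks in 2 conditions and share 1 genome and mapping, so such a p covers only the spread between them, and 0.031 is the smallest p that 6 libraries can give.

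Lactylated regions were spread very unevenly over the 40 ends. Starts held 1938 regions (48.5 per Mb) and far ends 2972 (74.3 per Mb), and the interior density was 70.1 per Mb. The poorest end, the start of chromosome 1, had 3.5 regions per Mb and the richest, the far end of chromosome 10, had 130.5. Far ends ranged from 8.5 to 130.5 per Mb with a median of 72.25, and starts from 3.5 to 117 with a median of 54.25. The density exceeded that of the rest of the same chromosome at 12 of 20 far ends and at 6 of 20 starts.

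**Figure D1:**
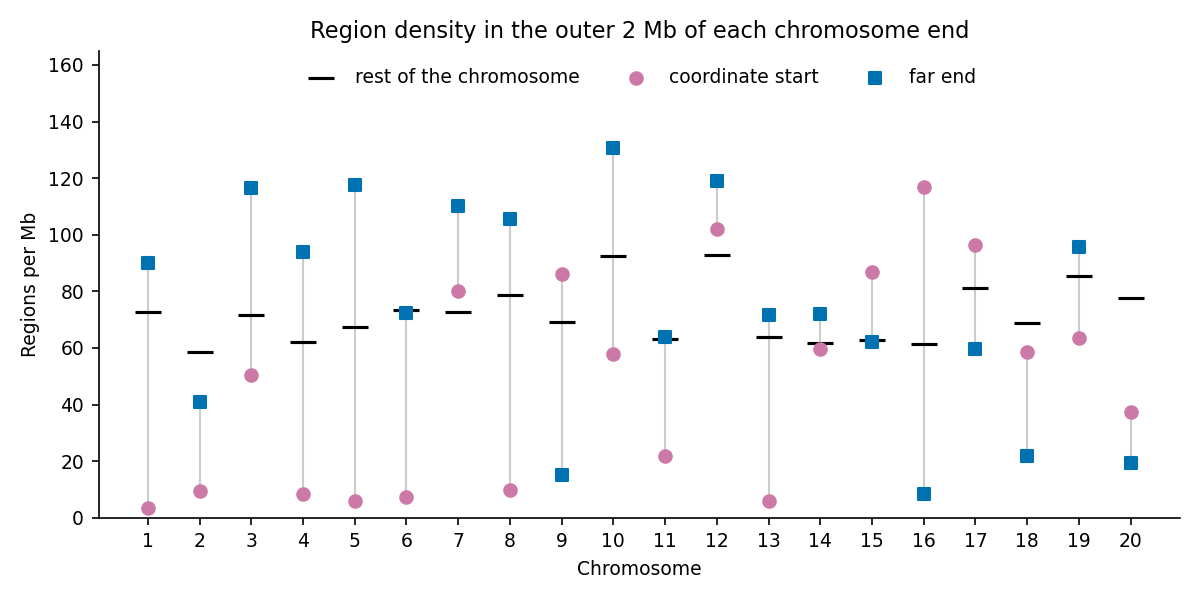
Regions per Mb in the outer 2 Mb of each chromosome, at the coordinate start (circles) and at the far end (squares), with the density of the rest of that chromosome (dashes), chromosomes 1 to 20 along the x axis. Many starts of the larger chromosomes sit near 0, while the far end of chromosome 10 reaches 130.5 regions per Mb.

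In peak numbers, starts were poorer and far ends richer than the interior in every library. At starts the density relative to the interior was −0.54, −0.42 and −0.41 on the log2 scale in the H3K9la, H4K8la and H4K16la control libraries and −0.41, −0.26 and −0.44 in their lactate libraries. The mean was −0.41, and the exact two-sided sign-flip permutation test over the 6 libraries gave p = 0.031 (adjusted p = 0.031). At far ends the control libraries gave 0.09, 0.17 and 0.29 and the lactate libraries 0.17, 0.23 and 0.13, with a mean of 0.18 and again an exact p of 0.031 (adjusted p = 0.031). The libraries did not overlap between the 2 kinds of end. The 2 kinds were measured differently, since far ends began at the outermost peak and starts at the first base. The first region thus lay at most 0.52 kb from the tip at far ends, but up to 562 kb at starts (chromosome 10). The part of this difference in the contrast was not tested. Over starts and far ends combined, the mean log2 ratio was −0.09 ± 0.07 (SD, n = 6), lower in 5 of 6 libraries (exact p = 0.0625, adjusted p = 0.0625 over 3 tests).

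The low density was concentrated at a few ends, most of them starts. There were 8 ends with 20 or fewer regions, and the next had 30. They were the starts of chromosomes 1, 2, 4, 5, 6, 8 and 13 and the far end of chromosome 16. These 16 Mb held 119 regions (7.44 per Mb), while the other 32 ends held 4791 (74.9 per Mb), a log2 ratio of 0.10 to the interior. This grouping was made after the counts were seen and carries no test. Without these ends the mean log2 ratio of peak density over the ends was 0.20 in place of −0.09, a rise that the choice of ends fixes.

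The start of chromosome 1 had 7 regions in 2 Mb, with 1 H3K9la, 3 H4K8la and 2 H4K16la peaks in control and 3, 2 and 1 with lactate. Its first region lay 363 kb from the start, and 1 of the 7 was called in all 6 libraries. The starts of chromosomes 5 and 13 had 12 regions each and that of chromosome 6 had 15. The longest stretch without any region was 383 to 981 kb at these 8 ends, and the start of chromosome 2 had the longest. At the other 32 ends it was 33.3 to 566 kb, with a median of 156 kb. Low density continued inward by different lengths. Going in from the tip, the first 1 Mb window that reached 50% of the chromosome's own interior density was the third on chromosomes 1 and 5, the sixth on chromosomes 2, 4 and 6, and the 22nd on chromosome 13. No rn7 genome was used here, so gaps in the assembly and repeats that reads cannot be placed in were not measured, and their part in these low counts was not tested.

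The few regions at these 8 ends held strong peaks but were mostly not shared between libraries. Of their 195 peaks over all libraries, 28 (14.4%) reached a −log10 q of at least 10, called strong from here on. Among all end peaks the strong share was 4.51% to 10.2%, depending on the library. Of the 119 regions at these 8 ends, 97 (81.5%) were called in 1 library only, against 64.1% of all end regions. In all 6 libraries 8 were called (6.72%, Wilson 95% interval 3.45 to 12.7), against 5.97% of all end regions and 4.14% of interior regions.

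The richest ends were the far ends of chromosomes 10 (130.5 regions per Mb), 12 (119), 5 (117.5) and the start of chromosome 16 (117). On chromosome 16 the start thus had 1.90 times the density of the interior and the far end 0.14 times. At the far end of chromosome 10 there were 113 H3K9la, 130 H4K8la and 81 H4K16la peaks in control and 84, 84 and 94 with lactate, and 27 of its 261 regions were called in all 6. The far end of chromosome 5 held 82, 100 and 66 peaks in control and 77, 71 and 95 with lactate, and 22 of 235 regions were common to all 6. Across the 40 ends the ranks of the peak counts were alike in every pair of libraries, with Spearman's rho of 0.89 to 0.97 over the 15 pairs. This is a description, since all pairs share the genome, its mappable sequence and the peak caller.

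Dense ends were not always shared ends. The start of chromosome 15 had 87 regions per Mb, 1.39 times its interior, but none of its 174 regions was called in all 6 libraries. For this count of 0 the upper bound was taken as 3 of 174 regions (1.72%), not from a Wilson interval. There, 134 regions (77.0%) had a peak in 1 library only, 3 of 256 peaks were strong, and the highest −log10 q was 11.8. At the start of chromosome 9, in contrast, 23 of 172 regions (13.4%) were in all 6 libraries, and at the start of chromosome 3 it was 16 of 101 (15.8%).

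Density also changed with distance from the tip. The outer 250 kb held 41.7 regions per Mb, the next 250 kb 48.6, and from 0.5 to 2 Mb the density was 64.75 to 69.5 per Mb. On the 2 sides of the 2 Mb limit the values were 69.5 per Mb from 1.5 to 2 Mb and 64.25 per Mb from 2 to 2.5 Mb, so nothing changed sharply there. From 5 to 10 Mb the density was 78.6 to 82.1 per Mb, above the interior mean. Split by side, it was 65.4 to 67.5 per Mb there for starts and 89.6 to 98.7 for far ends. From 2 to 5 Mb the bins held 47.4 to 53 per Mb for starts and 74.9 to 88 for far ends. The contrast of starts and far ends was thus not particular to the outer 2 Mb. Density was lower toward the tip on both sides, from 56.7 per Mb at 1 to 1.5 Mb to 30 in the outer 250 kb of starts, and from 88.4 at 1.5 to 2 Mb to 53.4 in the outer 250 kb of far ends.

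**Figure D2:**
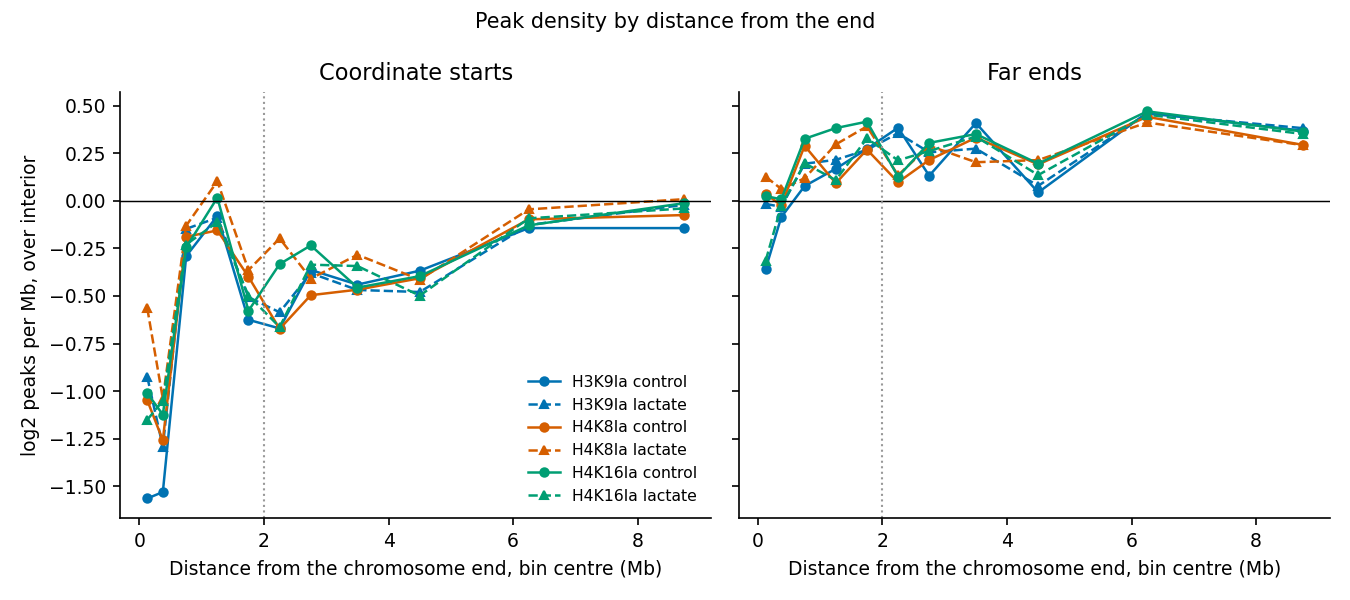
Peaks per Mb relative to the interior of the same library (log2, y axis) by distance from the chromosome end (x axis, bin centres in Mb), for starts (left) and far ends (right), 1 line per library, solid for control and dashed for lactate. The dotted line marks 2 Mb. All libraries lie below 0 in the outer 500 kb of starts, and most bins of the far ends lie above 0.

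Peaks near the ends were more often strong. For H3K9la, 7.88% of the control peaks at ends (137 of 1739) were strong against 6.06% in the interior, and 4.51% against 2.37% under lactate. H4K8la had 10.2% (186 of 1825) against 7.30% in control, and 6.13% against 3.21% under lactate. For H4K16la the control shares were 8.56% and 5.17%, and those under lactate 7.69% (140 of 1821) and 4.15%. The share was higher near ends in 6 of 6 libraries, the Wilson 95% intervals did not overlap in any of them, and the mean difference was 2.78 ± 0.68 percentage points (SD, n = 6, exact p = 0.031, adjusted p = 0.047 over 3 tests). In the outer 250 kb of each end, up to 19.0% of the peaks of a library were strong. Without it the difference was 2.19 points, with an exact p of 0.031 in the same test and an adjusted p of 0.094. That adjustment also takes in the density and width tests of the same setting, whose exact p were 0.19 and 0.0625. The Wilson intervals cover counting error only. By chromosome, the share was higher near the ends on 11 to 16 of 20 chromosomes, depending on the library. Counted alone, strong peaks were denser near ends than in the interior by a mean log2 ratio of 0.64 (exact p = 0.031, adjusted p = 0.031), the opposite direction to all peaks together.

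**Figure D3:**
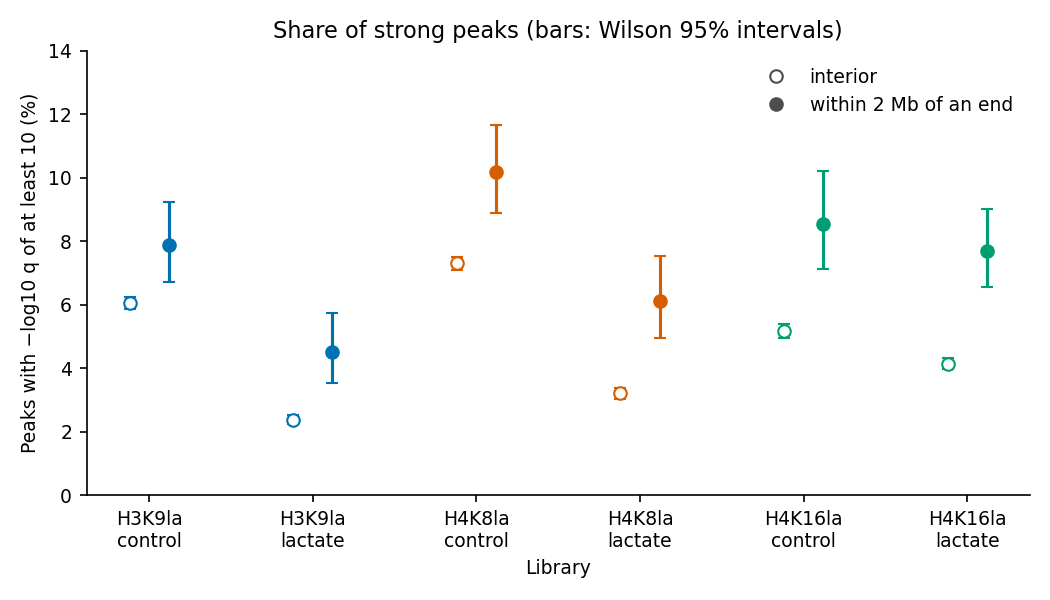
Percentage of strong peaks (−log10 q of 10 or more) in each library, in the interior (open circles) and within 2 Mb of an end (filled circles), with Wilson 95% intervals for counting error. The filled circle is higher in all 6 libraries, by 1.82 to 3.54 percentage points.

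Local background is the coverage around a peak against which its height was judged, and its part in the strong share was not tested. It exceeded 2 times the genome-wide background at 26.4% to 50.5% of end peaks and 20.2% to 50.1% of interior peaks, and the end share was higher in every library (50.4% against 50.1% in H3K9la control, and 26.4% against 20.2% in H4K16la lactate). Among peaks with a local background of up to 2 times, the strong share was higher near ends in each library, at 2.21% to 5.74% against 0.87% to 2.77%. The median fold over local background differed little, at 3.47 to 3.95 near ends and 3.38 to 3.90 in the interior. Peaks were also slightly wider near ends, with medians of 451 to 522 bp against 449 to 499 bp, and the log2 ratio was positive in 6 of 6 libraries (mean 0.05 ± 0.03, SD, n = 6, exact p = 0.031, adjusted p = 0.047). In the same exact test that call was lost in 6 of 12 alternatives, with adjusted p of 0.0625 to 0.125, among them peaks with a local background of up to 2 times (0.032, adjusted p = 0.125) and ends without the start of chromosome 3 (0.052, adjusted p = 0.0625).

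A larger share of end regions than of interior regions carried every mark in both conditions. Of the 4910 regions, 293 (5.97%, Wilson 95% interval 5.34 to 6.67) had a peak in all 6 libraries, against 4.14% (4.05 to 4.24) in the interior. The share was higher near the ends on 15 of 20 chromosomes. It was 6.30% at starts and 5.75% at far ends, whose intervals overlapped (5.30 to 7.47 and 4.97 to 6.65). It was highest in the outer 250 kb, with 43 of 417 regions (10.3%, 7.75 to 13.6), spread over 21 ends with at most 4 at any of them, and was 4.17% from 1.5 to 2 Mb. With only peaks of a local background up to 2 times the genome-wide one, the excess near ends was 0.52 percentage points, against 1.83 for all peaks. With peaks cut to 200 bp around the summit before merging, the excess was 1.19 points. The value needs all libraries at once, so it has no test over libraries.

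All 3 marks were called together in control at 10.1% of end regions (9.33 to 11.0) and 8.27% of interior regions, and with lactate at 8.70% (7.94 to 9.52) and 6.26%. Regions called in 1 library only made up 64.1% near ends and 66.3% in the interior. In control, H3K9la without the other marks was found at 15.6% of all end regions (14.6 to 16.6) and 17.6% of all interior regions (17.4 to 17.7), whereas H4K8la alone (17.6% and 17.4%) and H4K16la alone (10.4% and 10.0%) had overlapping intervals. With lactate, H3K9la alone was at 11.9% against 13.1%, H4K8la alone at 12.1% against 12.1%, and H4K16la alone at 19.7% against 20.9%. The intervals overlapped for H4K8la and H4K16la.

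The strongest end regions common to all libraries were found at tips of different chromosomes (build rn7, counted from 1). By mean −log10 q, the first of them ranked 17 of the 7202 regions common to all libraries on chromosomes 1 to 20. It lay on chromosome 17 from 85826292 to 85827488, 680 kb from the far end. Its −log10 q was 20.4 for H3K9la, 17.3 for H4K8la and 22.6 for H4K16la in control, and 35.8, 39.3 and 50.7 with lactate. The lactate library was the higher of the pair for each mark, and so was its fold over local background, at 8.77 against 7.81, 8.69 against 7.49 and 8.86 against 7.75.

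The opposite order held on chromosome 7 from 133749836 to 133751442, 1249 kb from the far end. There −log10 q was 26.1 in control and 21.7 with lactate for H3K9la, 42.2 and 10.7 for H4K8la, and 27.4 and 21.1 for H4K16la. On chromosome 11 from 85257592 to 85258875, 967 kb from the far end, the values were 21.3, 30.7 and 26.5 in control and 18.6, 23.4 and 32.5 with lactate, so that lactate was the lower for H3K9la and H4K8la and the higher for H4K16la. The fold there was lower with lactate for each mark, at 7.56 against 7.60, 8.56 against 9.05 and 8.03 against 8.47. A given fold has a higher −log10 q in a deeper library, as H4K16la lactate is. The other 5 named regions of this kind lay on chromosome 5 from 165782676 to 165783409, chromosome 9 from 908860 to 909664, chromosome 14 from 103055 to 104742, chromosome 18 from 125110 to 126236 and chromosome 8 from 123817482 to 123818672. Their mean −log10 q ran from 22.9 to 25.3. The last of them was 52.4 kb from the tip and had the highest fold of the 8 (11.3 in H3K9la lactate). Of the 1000 strongest regions common to all libraries, 61 (6.10%, 4.78 to 7.76) were near ends, against 4.07% of all 7202 such regions.

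Wide regions were found near ends as well. A width of at least 1500 bp was reached by 203 of 4910 end regions (4.13%) and 2.60% of interior regions. The widest was on chromosome 11 from 84861804 to 84865121 (3318 bp), with a peak in each library but H4K16la control and a fold of 3.18 to 4.19. The next were on chromosome 12 from 46499030 to 46501849 (2820 bp, 88.2 kb from the far end) and, at the start of chromosome 3, from 761103 to 763889 (2787 bp, in all 6 libraries).

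Peak numbers with lactate relative to control had the same direction near ends as in the interior, and were slightly closer to 0. For H3K9la the log2 ratio was −0.32 near ends (95% counting interval −0.42 to −0.21) and −0.42 in the interior. For H4K8la it was −0.43 (−0.53 to −0.33) against −0.53, and for H4K16la 0.52 (0.41 to 0.62) against 0.63. The difference between ends and interior was 0.10 for H3K9la (−0.0030 to 0.20), 0.10 for H4K8la (0.00043 to 0.21) and −0.11 for H4K16la (−0.21 to −0.0048). Each bound next to 0 was close to it, counting error is the only error covered, and 3 marks could not give a permutation p below 0.25, so no difference is called. With only strong peaks the difference was 0.65 for H3K9la, 0.55 for H4K8la and 0.055 for H4K16la, where the sign changed. The H4K16la lactate library had the highest background coverage of the 6 (2.84, against 1.53 in its control). For H4K8la the coverage was also higher with lactate (1.55 against 1.32), though its peaks were fewer. For H3K9la, with fewer peaks too, it was lower (1.88 against 2.17). The part of depth in these ratios was not tested.

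Calls by region were close to those over all regions. Of the 2385 end regions with an H3K9la peak in either condition, 1016 (42.6%, Wilson 95% interval 40.6 to 44.6) were control only, where all regions of chromosomes 1 to 20 gave 46.2%, and 668 (28.0%) were lactate only, where all regions gave 28.4%. For H4K8la, 1145 of 2488 (46.0%, 44.1 to 48.0) were control only against 50% of all regions, and 690 (27.7%) lactate only against 28%. For H4K16la, 663 of 2462 (26.9%) were control only against 26.7% of all regions, and 1199 (48.7%, 46.7 to 50.7) lactate only against 52.3%. The mark was called in both conditions at 29.4% of these end regions for H3K9la, 26.2% for H4K8la and 24.4% for H4K16la, where the corresponding shares of all regions were 25.4%, 22.1% and 21%. At end regions called in both conditions, the median log2 difference of the fold, lactate over control, was 0.05 for H3K9la, −0.11 for H4K8la and −0.16 for H4K16la, near the interior values of 0.04, −0.07 and −0.17.

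The start of chromosome 3 went against most other ends for H3K9la and H4K8la, and with them for H4K16la. It held 28 H3K9la peaks in control and 48 with lactate, 35 and 58 for H4K8la, and 37 and 63 for H4K16la. The log2 ratios were 0.78 (0.11 to 1.44), 0.73 (0.13 to 1.33) and 0.77 (0.19 to 1.35). Of the 27 ends with at least 40 peaks over both lists of each mark, it was the only one where all 3 marks had more peaks with lactate, while 21 had fewer for H3K9la and H4K8la and more for H4K16la. Among the ends with fewer peaks, 2 others also had more with lactate for every mark. At the start of chromosome 11 the numbers were 4 and 9, 13 and 19, and 3 and 16. At the far end of chromosome 20 they were 5 and 8, 9 and 14, and 8 and 15. This end was singled out after its values were seen, and its difference carries no test.

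**Figure D4:**
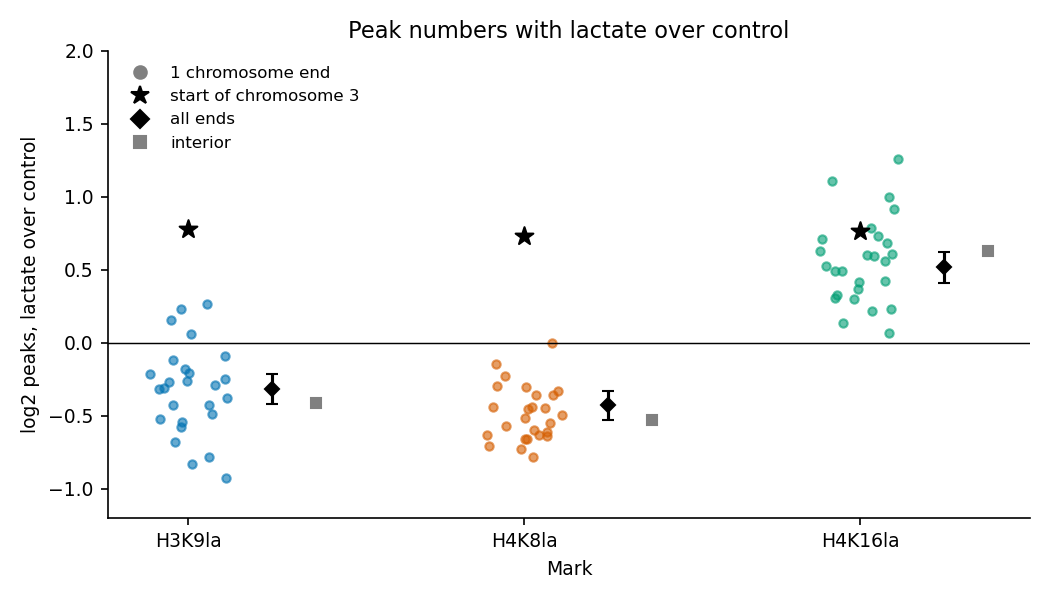
Log2 ratio of peak numbers, lactate over control, for each mark. Small points are the chromosome ends with at least 40 peaks over both lists of each mark, the star is the start of chromosome 3, diamonds are all ends and squares the interior, with 95% counting intervals. The star lies above every other end for H3K9la and H4K8la and within the cloud for H4K16la.

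At the start of chromosome 3, regions called with lactate only numbered 22 of 50 for H3K9la, 32 of 66 for H4K8la and 36 of 72 for H4K16la, which is 44%, 48.5% and 50%, where all regions of chromosomes 1 to 20 gave 28.4%, 28% and 52.3%. For H4K16la this share was thus not above that of all regions. Regions called in control only numbered 3, 9 and 9. Strong peaks numbered 3 in control and 7 with lactate for H3K9la, 7 and 12 for H4K8la, and 4 and 16 for H4K16la. Where a mark was called in both conditions, the summit pileup over the library's genome-wide background was higher with lactate at 21 of 25 regions for H3K9la, 21 of 25 for H4K8la and 15 of 27 for H4K16la. Over all end regions called in both conditions this held at 37.7%, 16.1% and 13.7%. Beyond the division by that background, these pileups were not corrected for depth. The fold over local background was higher with lactate at 15 of 25, 12 of 25 and 17 of 27 regions, against 55.1%, 37.2% and 31% of all end regions called in both conditions.

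Within these 2 Mb the numbers per 0.5 Mb were small. In the outer 0.5 Mb they were 5 in control and 6 with lactate for H3K9la, 8 and 10 for H4K8la, and 5 and 8 for H4K16la. From 0.5 to 1 Mb the peak numbers were 4 in control and 12 with lactate for H3K9la, 9 and 19 for H4K8la, and 7 and 20 for H4K16la. From 1 to 1.5 Mb they were 14 and 19, 13 and 19, and 16 and 21, and from 1.5 to 2 Mb 5 and 11, 5 and 10, and 9 and 14. Each of these 4 stretches thus had more peaks with lactate for every mark. The counting interval of the log2 ratio left out 0 only from 0.5 to 1 Mb, for H3K9la (0.03 to 3.14) and H4K16la (0.31 to 2.72). As this end was picked for its counts and each count is from 1 library, these intervals cannot single out a stretch. From 2 to 4 Mb they were 11 and 16, 10 and 22, and 15 and 18, and from 4 to 6 Mb 2 and 3, 4 and 7, and 5 and 2. From 6 to 10 Mb the numbers were 127 and 105, 130 and 92, and 86 and 125, the directions of the interior. At the far end of the same chromosome they were 76 and 64, 92 and 62, and 68 and 91. Median local background at the start of chromosome 3, relative to the genome-wide one, was 1.05 in control and 1.39 with lactate for H3K9la, 1.53 and 1.92 for H4K8la, and 1.57 and 1.57 for H4K16la, and its part in the peak numbers was not tested.

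Among the strongest end regions called in 1 condition only, chromosome 3 led the lactate side for H4K8la and H4K16la, but not for H3K9la. Of the 83 strong H4K8la lactate peaks near ends, 3 were lactate only (3.61%, 1.24 to 10.1, against 2.26% of all strong peaks of that library), and all 3 were there. They lay in the regions from 1498184 to 1498721 (−log10 q 16.7), from 1507064 to 1508432 (13.5) and from 1072663 to 1073606 (12.6). The nearest H4K8la control peak was 28214, 18503 and 1335 bp away, respectively. In the first of these regions, H3K9la had 4.3 in control and 6.5 with lactate and H4K16la 3.3 and 5.8. H4K16la had 17 strong lactate-only peaks among 140 near ends (12.1%, against 14.7% of all strong peaks of that library), spread over 12 ends, and 4 of them were at this start, including those of highest −log10 q, from 724148 to 724966 (16.8) and from 949129 to 949749 (15.7). In the latter region H3K9la (5.6) and H4K8la (7.5) were likewise called with lactate and not in control. The third was on chromosome 14 from 1880543 to 1881250 (15.3), where both other marks were called in both conditions. For H3K9la, 1 of 63 strong lactate peaks near ends was lactate only (1.59%, against 3.68% of all strong peaks of that library). It was on chromosome 15 from 498118 to 498678 (10.7), where all 3 marks were called with lactate only. The next for this mark were on chromosome 5 from 166628785 to 166629517 (9.1) and, at the start of chromosome 17, from 690796 to 691280 (8.9), the latter in no other library.

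The strong control-only peaks lay at 9 ends for H3K9la, 12 for H4K8la and 2 for H4K16la. There were 11 among the 137 strong H3K9la control peaks near ends (8.03%, Wilson 95% interval 4.54 to 13.8, where all strong peaks of that library gave 13.9%), 19 of 186 for H4K8la (10.2%, against 11%) and 2 of 109 for H4K16la (1.83%, against 4.25%). None was at the start of chromosome 3, which held only 3, 7 and 4 of the strong control peaks of these marks. With so few strong peaks, their absence there sets that start apart from no other end. On chromosome 17 from 85205869 to 85206594, 1301 kb from the far end, H3K9la (14.2) and H4K8la (15.0) were both called in control only, and H4K16la with lactate only (7.2). The nearest lactate peak of the same mark was 4938 bp away for H3K9la but only 509 bp away for H4K8la. The next H3K9la control-only peaks were on chromosome 14 from 1801653 to 1802710 (13.1) and, at the far end of chromosome 19, from 55563512 to 55564935 (12.9). On chromosome 20 from 1709506 to 1710513, H4K8la was called in control only (15.9), while H3K9la had 24.3 in control and 9.7 with lactate and H4K16la was called with lactate only (10.1). The strongest H4K8la control-only peak, on chromosome 9 from 866755 to 867802 (30.5), lay in a region with weaker peaks in the 4 libraries of the other marks (2.6 to 8.9). The strongest H4K16la control-only peak was on chromosome 17 from 964228 to 965126 (12.6), where H3K9la (6.9 and 7.9) and H4K8la (13.5 and 10.7) were called in both conditions. The next were on chromosome 5 from 166269243 to 166270124 (10.8) and, at the far end of chromosome 10, from 105902599 to 105903239 (9.7), the latter in no other library.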

How the data were processed

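Each of the 6 libraries has its own deposited peak list. FastQC, cutadapt, Bowtie2, deepTools and MACS2 and build rn7 are named per the submitters' processing notes. Roles, versions and settings, and whether an IgG library entered peak calling, are not stated there. In the authors' lists the fold is a ratio of summit pileup to local background, the −log10 p and −log10 q are the caller's statistics, and the deposited score is 10 times −log10 q without decimals. Columns of positions were used as deposited. The lowest −log10 q was 1.30 to 1.31. Groups come from the sample titles; the free-text treatment field, which names lactate everywhere, was ignored.

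Pileup and local background were recovered by taking the fold as (pileup + 1) over (background + 1) and p as a Poisson tail, within 0.002 of −log10 p; this reading is inferred from the values. The commonest local background of a list served as its genome-wide background. Libraries were compared with exact two-sided sign-flip permutation tests, Benjamini-Hochberg adjusted over the 3 tests of a setting. Shares have Wilson 95% intervals unless another bound is named. The position rule, lists and tests were chosen with earlier results of these data known. Named regions are the 8 of highest mean −log10 q in all 6 libraries, the 3 of highest −log10 q per mark and direction in 1 condition only, the 4 richest and poorest ends and the 3 widest regions. The search and the density estimate were tested on simulated data. The gene and promoter tables at hand describe another assembly, so genes and sequences were not used here. Python 3.11.15, numpy 2.4.6, pandas 2.3.3, scipy 1.17.1 and matplotlib 3.10.9 were used.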

Additional observations from a re-analysis of the deposited data

Results flagged for a closer look

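Near the chromosome ends, peak numbers with lactate against control moved in opposite directions between marks. The log2 ratio was −0.32 for H3K9la and −0.43 for H4K8la, but 0.52 for H4K16la. Each value comes from 1 library per condition, so the difference between marks was not tested. The same directions held in the interior (−0.42, −0.53 and 0.63).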

How the results depend on the processing

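The direction of the peak density near ends depended on which ends and peaks were counted. Against the mean log2 ratio of −0.09, it was −0.22 with 1 Mb and −0.072 with 5 Mb in place of 2 Mb, −0.41 at starts only, −0.26 with chromosomes weighted equally, −0.17 for peaks with a local background of up to 2 times the genome-wide one and −0.093 without the start of chromosome 3, all past the threshold (exact permutation p = 0.031, adjusted p 0.031 to 0.047). It was nearer 0 and not past it in covered bases (−0.022, exact permutation p = 0.53) and without the outer 250 kb (−0.039, exact permutation p = 0.19). It was above 0 at far ends only (0.18) and for −log10 q of at least 5 (0.16) or 10 (0.64). Without the 4 densest ends (−0.28) or the 8 poorest (0.20) the shift follows from the choice of ends. The width difference kept its sign in 12 of 12 alternatives but was no longer past the threshold with 5 Mb (0.022), without the 4 densest ends (0.032), with chromosomes weighted equally (0.043), with low local background (0.032), without the outer 250 kb (0.044) and without the start of chromosome 3 (0.052), with adjusted p of 0.0625 to 0.125. The strong-peak difference stayed positive in 11 of 11, from 1.25 to 6.85 points. Without the outer 250 kb its adjusted p missed the threshold (2.19 points, exact permutation p = 0.031, adjusted p = 0.094). The excess of regions in all 6 libraries stayed positive in 13 of 13. It was 2.53 points with 1 Mb, 0.70 with 5 Mb, 1.19 with peaks cut to 200 bp and 0.52 with low local background. At −log10 q of at least 10, the end minus interior difference in the lactate ratio was 0.65 for H3K9la, 0.55 for H4K8la and 0.055 for H4K16la, where it changed sign, and at 5 it was 0.32 for H4K8la. The cause of these changes was not tested. The limits of 8 poorest ends, low local background, outer 250 kb and chromosome 3 were chosen after seeing the data. The labels give no replicate numbers, so no replicate block was fitted.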
